A study of Mus musculus with 10 samples.

Results

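Granzymes, perforin and Nkg7 are products of the cytotoxic granules of natural killer (NK) cells and T cells, and their transcripts were followed in whole melanomas. The 10 genes were Gzma, Gzmb, Gzmc, Gzmd, Gzme, Gzmf, Gzmk, Gzmm, Prf1 and Nkg7. They were chosen by symbol, and all 10 had a row among the 45706 genes of the count matrix. Bulk RNA was profiled from 10 subcutaneous tumors taken on day 4 after implantation into C57BL/6 hosts that were 8 weeks old. The 4 Ptgs+/+ tumors grew from wildtype cells of a Braf-mutant mouse melanoma line. The 3 Ptgs-/- tumors grew from cells of that line made deficient by CRISPR/Cas9 in Ptgs1 and Ptgs2, the genes for the cyclooxygenases that start prostaglandin synthesis. The other 3 Ptgs-/- tumors grew in hosts depleted of NK cells with 200 µg anti-NK1.1 and 30 µg anti-asialo GM1 per mouse, given on day 0 and day 2. The hosts were wild type in all groups and kept their T cells, and both antibodies can also bind some cells that are not NK cells. The labels do not say whether a library came from 1 animal or from a pool, so the p-values measure the spread between libraries.

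Killer cells release perforin and granzymes together at the contact with a target cell. Perforin opens pores in the target's membrane, and granzymes are serine proteases that enter the target and cleave proteins there. Granzyme A is a tryptase and granzyme B cleaves after aspartate, whereas Gzmc, Gzmd, Gzme and Gzmf are rodent genes beside Gzmb that strongly stimulated killer cells express. Nkg7 is a membrane protein of the granules that takes part in their release.

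Levels are given as CPM, a gene's counts scaled to the total count of its library. Reads came from the 3′ ends of transcripts, so that a transcript is meant to be counted once whatever its length. Libraries held 8150556 to 12839174 counts, so that 3 counts stood for 0.234 to 0.368 CPM. The targeted gene Ptgs2 was at 94.4 to 347 CPM in Ptgs+/+ tumors, at 27.0 to 74.8 CPM in Ptgs-/- tumors and at 40.2 to 49.3 CPM in NK cell-depleted Ptgs-/- tumors. Ptgs1 was at 128 to 170 CPM, 77.0 to 105 CPM and 95.3 to 97.8 CPM in the same order, and for both genes the Ptgs+/+ range lay above the others. Of the melanocyte genes, Mitf was at 17.4 to 33.1 CPM and Sox10 at 0.207 to 5.53 CPM, whereas the pigment genes Tyr, Tyrp1, Dct, Pmel and Mlana reached at most 0.738 CPM in any library. Replicate 4 of the Ptgs+/+ tumors and replicate 3 of the Ptgs-/- tumors carry the experiment code EB042, and the other libraries EB046. The EB042 libraries were the highest in CPM of their group for 9 and 7 of the 10 genes. The 9 include Gzmk, which had 1 count in each Ptgs+/+ library. The share of all genes for which an EB042 library was highest was not counted.

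Gzma and Gzmk are neighbours on chromosome 13, Prf1 and Gzmm lie apart on chromosome 10, and Nkg7 is on chromosome 7. Gzmb, Gzmc, Gzmf, Gzmd and Gzme lie in this order in 1 cluster on chromosome 14 that runs on into the mast cell proteases. The annotation places Gzmb at chr14:56258838-56262260, Gzmc at chr14:56231441-56234656 and Gzmd at chr14:56129556-56132608 of GRCm38, all on the minus strand. Promoters are shown for the members that the results turn on, to let Gzmb be set beside its cluster neighbours Gzmc and Gzmd. The sequences are RefSeq's (GRCm38.p6), 250 bases before to 50 after the start that RefSeq gives, 5′ to 3′. This start lies 74 bases upstream of the annotated one for Gzmb, so that the Gzmb window is wholly outside the annotated gene. The starts of the other 5 differ by 0 to 65 bases, most for Nkg7. The windows are chr13:113100932-113101231 for Gzma, chr14:56262285-56262584 for Gzmb, chr14:56234608-56234907 for Gzmc and chr14:56132544-56132843 for Gzmd, each read from the minus strand. Those on the plus strand are chr7:43436888-43437187 for Nkg7 and chr10:61297586-61297885 for Prf1. Capitals mark matches on either strand to the core motifs of RUNX (TGTGGT) and T-box factors (GTGTGA), to AP-1 (TGANTCA) and to GAS, the site of STAT factors (TTCNNNGAA).
Gzma: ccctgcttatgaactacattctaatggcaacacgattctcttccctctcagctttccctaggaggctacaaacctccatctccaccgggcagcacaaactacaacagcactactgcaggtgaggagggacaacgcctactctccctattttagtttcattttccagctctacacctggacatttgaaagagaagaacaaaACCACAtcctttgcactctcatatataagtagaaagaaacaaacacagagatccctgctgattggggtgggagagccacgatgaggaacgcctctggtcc
Nkg7: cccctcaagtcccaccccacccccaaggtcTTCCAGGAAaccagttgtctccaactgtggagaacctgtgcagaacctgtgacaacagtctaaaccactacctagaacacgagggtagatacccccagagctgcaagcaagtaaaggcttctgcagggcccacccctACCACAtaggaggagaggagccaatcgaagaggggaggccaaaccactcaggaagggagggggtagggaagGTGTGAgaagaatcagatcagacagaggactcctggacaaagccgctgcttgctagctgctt
Prf1: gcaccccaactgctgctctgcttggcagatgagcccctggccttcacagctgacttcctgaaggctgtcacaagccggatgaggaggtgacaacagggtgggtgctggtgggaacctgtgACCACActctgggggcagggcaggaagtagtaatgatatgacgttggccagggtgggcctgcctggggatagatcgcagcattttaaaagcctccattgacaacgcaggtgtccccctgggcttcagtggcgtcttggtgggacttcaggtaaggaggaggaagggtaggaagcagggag
Gzmb: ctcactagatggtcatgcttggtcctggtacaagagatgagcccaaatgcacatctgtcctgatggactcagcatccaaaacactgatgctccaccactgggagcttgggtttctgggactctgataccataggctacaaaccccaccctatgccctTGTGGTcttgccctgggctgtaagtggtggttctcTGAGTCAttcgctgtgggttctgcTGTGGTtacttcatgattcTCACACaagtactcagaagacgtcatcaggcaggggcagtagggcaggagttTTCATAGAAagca
Gzmc: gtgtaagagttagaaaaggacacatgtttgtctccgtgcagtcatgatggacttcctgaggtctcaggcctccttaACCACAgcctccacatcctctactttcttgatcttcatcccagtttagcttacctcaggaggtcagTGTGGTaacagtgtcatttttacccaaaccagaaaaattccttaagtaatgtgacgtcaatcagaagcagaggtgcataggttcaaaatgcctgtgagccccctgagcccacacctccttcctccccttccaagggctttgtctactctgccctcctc
Gzmd: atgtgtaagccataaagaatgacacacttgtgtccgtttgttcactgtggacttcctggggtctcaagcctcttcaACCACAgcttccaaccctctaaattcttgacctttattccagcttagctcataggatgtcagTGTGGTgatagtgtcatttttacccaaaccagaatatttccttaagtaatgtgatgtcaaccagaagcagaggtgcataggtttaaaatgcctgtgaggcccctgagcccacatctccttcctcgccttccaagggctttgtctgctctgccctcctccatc

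The Gzmc and Gzmd promoters shared 253 identical bases of 300 (84.3%) after alignment, whereas Gzmb and Gzmc shared 152 (50.7%), close to the 148 (49.3%) of Gzma and Gzmb, which lie on different chromosomes. Gzmd and Gzme were the most alike pair, with 281 of 300 (93.7%). The RUNX core occurred in all 6 promoters shown, against 16.8% of 32851 mouse promoters of the same length. These 6 were chosen for their results, and Gzmc and Gzmd are so alike that their matches do not count separately. Over the first promoter listed for each of the 10 genes, 9 held the RUNX core and Gzmk did not. Of these 9, the promoters of Gzmc, Gzmd, Gzme and Gzmf are 79.7% to 93.7% identical, so that their matches do not count separately either. Gzmb alone of the 6 held the AP-1 motif, which 7.81% of all promoters hold. The T-box core (14.5% of all promoters) and GAS (8.30%) occurred in Gzmb and Nkg7 and in none of the other 4 shown. Of the genes not shown, Gzmk and the second listed promoter of Gzmm held the T-box core, and the first of Gzmm held GAS. A match is a description of the letters and does not show that a factor bound there.

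Granule transcripts, summed, were highest in Ptgs-/- tumors and lowest after NK cell depletion. The summed level of the 10 genes was 8.45 to 56.0 CPM in Ptgs+/+ tumors, 60.4 to 125 CPM in Ptgs-/- tumors and 3.42 to 4.52 CPM in NK cell-depleted Ptgs-/- tumors. Gzma was the largest part of it in all Ptgs-/- tumors of hosts that kept their NK cells. In bulk tumors fewer cells of a type and less RNA per cell cannot be told apart.

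**Figure D1:**
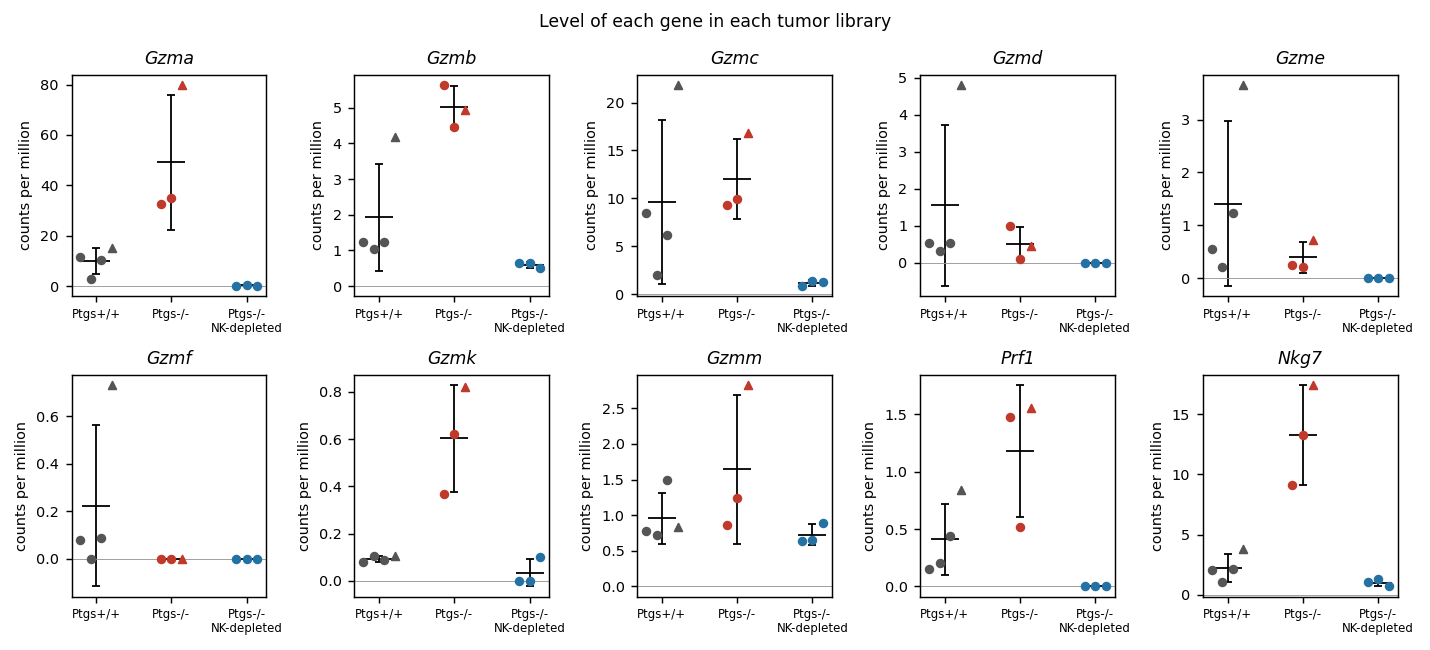
Level of each gene in CPM (y axis, a scale of its own in each panel) in the 4 Ptgs+/+, 3 Ptgs-/- and 3 NK cell-depleted Ptgs-/- libraries; triangles are the EB042 libraries and bars the mean ± SD. Gzma, Gzmb, Gzmk and Nkg7 separate all 3 Ptgs-/- libraries from all others, whereas Gzmd, Gzme and Gzmf are highest in 1 Ptgs+/+ library (triangle).

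Gzma, the tryptase of the granule, was measured at 11.4, 2.78, 10.5 and 15.2 CPM in Ptgs+/+ replicates 1 to 4. It was at 32.4, 34.97 and 80.0 CPM in the Ptgs-/- tumors and had 2, 6 and 0 counts (0.214, 0.554 and 0 CPM) in the depleted ones. The 3 groups did not overlap. Gzma rose in Ptgs-/- over Ptgs+/+ tumors by a log2 fold change of 2.24 ± 0.46 (SE; adjusted p = 0.00511, edgeR quasi-likelihood fit, adjusted by Benjamini-Hochberg over 14550 genes). It was higher by 7.44 ± 0.79 in Ptgs-/- than in depleted Ptgs-/- tumors (adjusted p = 0.000971, same edgeR test), with a 95% interval of 5.72 to 9.17. Depleted Ptgs-/- tumors also lay below Ptgs+/+ tumors, with a log2 fold change of -5.20 ± 0.81 (adjusted p = 0.00180, same edgeR test). The size of both differences rests on the few counts left in depleted tumors. Without depleted replicate 2, which held 6 of the 8 counts, they were 8.71 and -6.47, and over all fits that left out 1 library they ran from 6.89 to 8.71 and from -6.47 to -4.63 and stayed called.

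Nkg7, the granule membrane protein, was at 2.03, 1.03, 2.11 and 3.77 CPM in Ptgs+/+ tumors and at 9.08, 13.2 and 17.4 CPM in Ptgs-/- tumors. In depleted tumors it was at 1.07, 1.29 and 0.695 CPM. The Ptgs-/- libraries were above all others, and the depleted range overlapped that of Ptgs+/+ at its lowest library. Nkg7 rose by 2.52 ± 0.34 in Ptgs-/- over Ptgs+/+ tumors (adjusted p = 0.000579, edgeR's quasi-likelihood test) and was higher by 3.65 ± 0.42 than in depleted tumors (adjusted p = 0.00154, same edgeR test). The difference of -1.14 ± 0.43 between depleted and Ptgs+/+ tumors did not pass (adjusted p = 0.112, same edgeR test).

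Gzmb, the aspartate-specific granzyme, was at 1.25, 1.03, 1.23 and 4.18 CPM in Ptgs+/+ tumors, at 5.64, 4.45 and 4.92 CPM in Ptgs-/- tumors and at 0.642, 0.646 and 0.497 CPM in depleted tumors. The groups did not overlap, although the EB042 Ptgs+/+ library came near the Ptgs-/- range. The log2 fold change of Ptgs-/- over Ptgs+/+ tumors was 1.34 ± 0.41 (adjusted p = 0.0351, edgeR's quasi-likelihood test), and a call here also needed a log2 fold change of at least 1.5. Within the EB046 libraries it was 2.07 and Gzmb was called (adjusted p = 0.00406, same edgeR test), and it was 2.01 without Ptgs+/+ replicate 4 alone, where Gzmb was also called. Gzmb was higher in Ptgs-/- than in depleted tumors by 3.02 ± 0.52 (adjusted p = 0.0120, same edgeR test). Without any 1 of the 3 depleted libraries this call was lost, with an adjusted p of up to 0.0797 in the same edgeR test. The difference of -1.67 ± 0.53 between depleted and Ptgs+/+ tumors did not pass (adjusted p = 0.0602, same edgeR test).

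Gzmc exceeded Gzma in 1 Ptgs+/+ tumor, replicate 4, and, at few counts, in the 3 depleted tumors. It was below Gzma in all Ptgs-/- tumors of hosts that kept their NK cells. It was at 8.49, 2.06, 6.23 and 21.9 CPM in Ptgs+/+ tumors, at 9.32, 9.93 and 16.8 CPM in Ptgs-/- tumors and at 0.856, 1.38 and 1.29 CPM in depleted tumors. Its Ptgs+/+ and Ptgs-/- ranges overlapped, and the depleted libraries were below both. The log2 fold change of Ptgs-/- over Ptgs+/+ tumors was 0.27 ± 0.53 with a 95% interval of -0.89 to 1.44 (adjusted p = 0.749, edgeR's quasi-likelihood test). The estimate for Gzma, 2.24, lay above this interval. The 95% interval of Gzma, 1.24 to 3.24, overlapped that of Gzmc, and the 2 genes were not tested against each other. Gzmc was higher in Ptgs-/- than in depleted tumors by 3.30 ± 0.70 (adjusted p = 0.0417, same edgeR test), and depleted tumors were lower than Ptgs+/+ tumors, with a log2 fold change of -3.03 ± 0.68 (adjusted p = 0.0139, same edgeR test). Both calls were lost without any 1 of the depleted libraries, with an adjusted p of up to 0.186 and 0.0628 in the same edgeR test. Without Ptgs+/+ replicate 4 the latter was -2.28 and stayed called. The former was also lost without Ptgs+/+ replicate 1 or without Ptgs-/- replicate 2 or 3.

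Gzmm, a granzyme that cleaves after methionine, was at 0.779, 0.722, 1.49 and 0.837 CPM in Ptgs+/+ tumors, at 0.859, 1.24 and 2.83 CPM in Ptgs-/- tumors and at 0.642, 0.646 and 0.894 CPM in depleted tumors. All groups overlapped. Its log2 fold changes were 0.73 ± 0.43 for Ptgs-/- over Ptgs+/+, 1.16 ± 0.48 for Ptgs-/- over depleted Ptgs-/- and -0.43 ± 0.48 for depleted Ptgs-/- over Ptgs+/+ tumors, and none passed (adjusted p = 0.245, 0.394 and 0.624, edgeR's quasi-likelihood test).

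Gzma and Nkg7 were thus the 2 of the 10 genes called higher in Ptgs-/- than in Ptgs+/+ tumors, where 3.14% of all genes tested were. Gzma, Gzmb, Gzmc and Nkg7 were called higher in Ptgs-/- than in depleted tumors, where 0.323% of all genes were. Gzma and Gzmc were called lower in depleted than in Ptgs+/+ tumors, where 0.701% of all genes were. The comparisons share libraries and are not independent. Groups without overlap were more common than calls. Of the 14550 genes tested, 2636 were higher in every Ptgs-/- library than in any Ptgs+/+ library. For 1517 every Ptgs-/- library was above every depleted one. Gzmd, Gzme, Gzmf, Gzmk and Prf1 were below the filter on low counts and were not in this test.

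**Figure D2:**
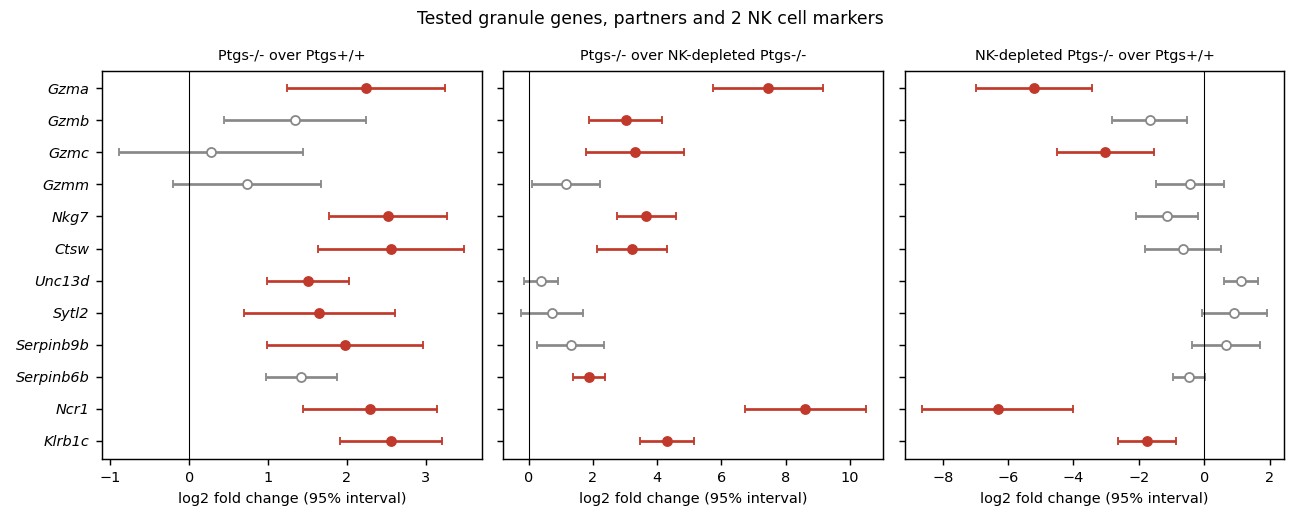
Log2 fold change with its 95% interval (x axis) for the 5 granule genes tested, for partner genes and for Ncr1 and Klrb1c, in the 3 comparisons; filled red points were called and open grey points were not. Gzma and Nkg7 are called in both comparisons of Ptgs-/- tumors, and Gzmm in none.

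Prf1, which encodes perforin, had 2, 2, 5 and 8 counts in Ptgs+/+ tumors, 12, 5 and 17 in Ptgs-/- tumors and 0 in the 3 depleted tumors. The Ptgs-/- mean was at least 3.95-fold higher than the depleted group, taken at a floor of 3 counts per library. Depleted tumors were at least 1.37-fold lower than the Ptgs+/+ mean on that floor. Ptgs-/- libraries held 34 Prf1 counts and Ptgs+/+ libraries 17, a ratio per count sequenced of 3.02 with a counting interval of 1.64 to 5.77 that leaves out the spread between tumors, and the 2 groups overlapped.

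Gzmk, a tryptase gene beside Gzma, had 1 count in each Ptgs+/+ tumor, 3, 6 and 9 in the Ptgs-/- tumors and 0, 0 and 1 in the depleted ones. All Ptgs-/- libraries were above all others, with a ratio to Ptgs+/+ of 6.80. Its counting interval of 2.24 to 27.6 leaves out the spread between tumors.

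Gzmd had 7, 3, 6 and 46 counts in Ptgs+/+ tumors, 8, 1 and 5 in Ptgs-/- tumors and 0 in each depleted tumor. Gzme had 7, 2, 14 and 35 counts, then 2, 2 and 8, and 0 in each depleted tumor. Gzmf had 1, 0, 1 and 7 counts in Ptgs+/+ tumors and 0 in the 6 Ptgs-/- libraries, depleted or not. Replicate 4 of the Ptgs+/+ tumors was the highest for all 3 genes. Depleted tumors were at least 5.19-fold lower for Gzmd and at least 4.72-fold lower for Gzme than the Ptgs+/+ mean at the floor of 3 counts per library. Replicate 4 raised that mean. It was at 4.81 CPM for Gzmd, with the other Ptgs+/+ libraries at 0.309 to 0.545 CPM. For Gzme it was at 3.66 CPM, with the others at 0.206 to 1.23 CPM. Gzmd, Gzme, Gzmf and the neighbour Gzmg share identical stretches of 49 to 72 bases in the last 300 bases of their transcripts, where these reads lie, so that their counts cannot be told apart with certainty. Against these genes Gzmc shared at most 10 bases. The neighbour Gzmn shares stretches of 41 to 88 bases with them and was left out of the sum that follows. It had 2 counts in the Ptgs+/+ tumors, 0 in the Ptgs-/- tumors and 2 in the depleted ones. Summed over the 4, counts were 24, 5, 25 and 110 in Ptgs+/+ tumors, 12, 3 and 18 in Ptgs-/- tumors and 0 in depleted tumors. The Ptgs-/- to Ptgs+/+ ratio of this sum was 0.304, and the groups overlapped. Its counting interval of 0.203 to 0.444 leaves out the spread between tumors. Replicate 4 held 110 of the 164 Ptgs+/+ counts, so that the ratio rests largely on this library.

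With no filter on low counts (27098 genes, the same edgeR test), Gzmk was called higher in Ptgs-/- than in Ptgs+/+ tumors (adjusted p = 0.0305) and Prf1 higher in Ptgs-/- than in depleted tumors (adjusted p = 0.00168). Gzmb, Gzmd, Gzme and Prf1 joined Gzma and Gzmc among the genes lower in depleted than in Ptgs+/+ tumors. The adjusted p of Ptgs-/- against Ptgs+/+ tumors was 0.111 for Prf1, 0.217 for Gzmd, 0.125 for Gzme and 0.161 for Gzmf in this edgeR fit.

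The makeup of the granzyme counts differed between the groups. Gzma took 49.2%, 38.6%, 49.2% and 29.5% of the counts of the 8 granzymes in Ptgs+/+ tumors and 65.0%, 67.9% and 75.1% in Ptgs-/- tumors. It took 9.09%, 17.1% and 0% in depleted tumors, which held only 22, 35 and 28 granzyme counts. The 3 groups did not overlap in this share. The 95% Wilson intervals reached up to 55.4% in Ptgs+/+ replicate 3 and down to 60.3% in Ptgs-/- replicate 1, and these cover counting error only. Gzmc took 28.6% to 42.6% in Ptgs+/+, 15.8% to 19.3% in Ptgs-/- and 36.4% to 46.4% in depleted tumors. Gzmb took 5.39% to 14.3%, 4.62% to 11.3% and 17.9% to 27.3%, and Gzmm took 1.63% to 10.0%, 1.72% to 2.65% and 20% to 32.1% in that order.

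**Figure D3:**
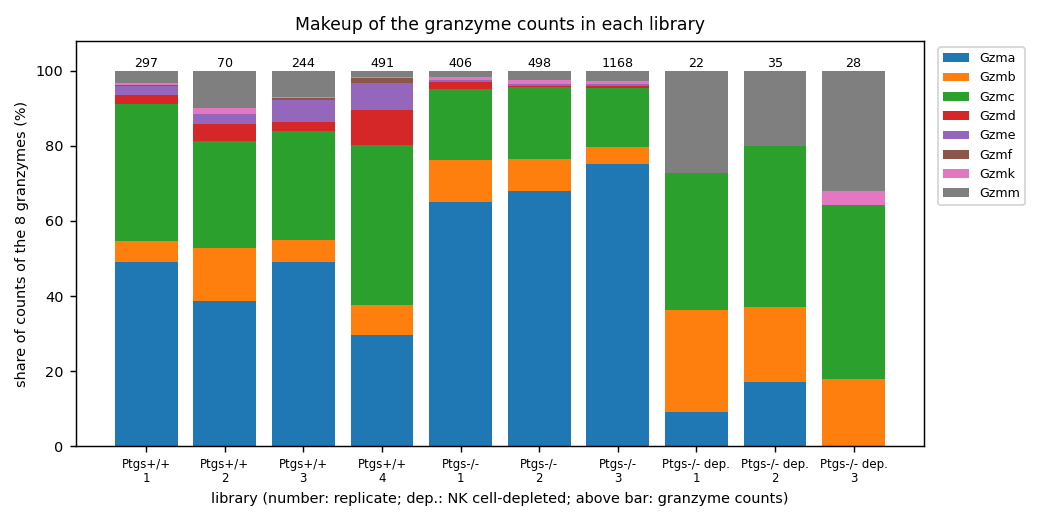
Share of each granzyme in the counts of the 8 granzymes (y axis, percent) in every library, with the number of granzyme counts above each bar. Gzma takes the largest share in the Ptgs-/- libraries, and Gzmb, Gzmc and Gzmm make up most of the few counts left in the depleted ones.

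The ratio of Gzma to Gzmb counts within a library does not depend on its depth. On the log2 scale, with 0.5 added to each count, it was 2.36 ± 0.88 (SD, n = 4) in Ptgs+/+ tumors, 3.16 ± 0.77 (n = 3) in Ptgs-/- tumors and -1.68 ± 1.65 (n = 3) in depleted tumors. The ratio was lower in every depleted library than in any other, by 4.84 against Ptgs-/- tumors (exact permutation p = 0.10, adjusted p = 0.171) and by -4.04 as depleted minus Ptgs+/+ (exact permutation p = 0.0571, adjusted p = 0.171). Each of these p-values is the smallest that the number of libraries allows, and both tests were two-sided. The Ptgs-/- and Ptgs+/+ ratios overlapped (difference 0.80, exact permutation p = 0.343). The log2 ratio of Prf1 to Nkg7 was -2.43 ± 0.65 in Ptgs+/+, -3.52 ± 0.99 in Ptgs-/- and -4.39 ± 0.48 in depleted tumors. Its differences had exact permutation p-values of 0.114 for Ptgs-/- against Ptgs+/+, 0.30 for Ptgs-/- against depleted and 0.0571 for depleted against Ptgs+/+ tumors, with adjusted p = 0.171, 0.343 and 0.171 over the 6 tests. As Prf1 had 0 counts in all depleted libraries, the added 0.5 sets their ratio, and the difference between Ptgs-/- and depleted tumors turned from 0.86 to -1.11 with 3 added.

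Markers of NK cells moved with the granule genes in their summed level, highest in Ptgs-/- and lowest in depleted tumors. T cell markers were also highest in Ptgs-/- tumors, but lowest in Ptgs+/+ tumors. The part of either in these results was not tested. The summed level of 10 NK cell markers was 13.9 to 23.5 CPM in Ptgs+/+, 58.8 to 126 CPM in Ptgs-/- and 7.38 to 8.94 CPM in depleted tumors. All 9 markers tested were called higher in Ptgs-/- than in Ptgs+/+ tumors, where 3.14% of all genes were (median log2 fold change 2.29, against -0.01 over all genes). All 9 were called higher than in depleted tumors, where 0.323% of all genes were (median 4.31, against -0.01 over all genes). Klre1 passed the filter on low counts through the Ptgs-/- libraries alone (2.59 to 6.66 CPM, at most 0.732 CPM elsewhere), and Khdc1a was below it. Klra8 (2.33 to 6.11 CPM, at most 1.17 CPM elsewhere) and Ncr1 (2.45 to 7.02 CPM, at most 1.15 CPM elsewhere) also passed only with those libraries. The filter thus sets part of these counts. Ncr1, which encodes the receptor NKp46, had 0 counts in the 3 depleted libraries, and Klrb1c, which encodes NK1.1, remained at 0.428, 1.02 and 0.298 CPM there. The transcription factor gene Tbx21, which T cells also use, was at 1.82 to 2.88 CPM in depleted and 1.24 to 2.93 CPM in Ptgs+/+ tumors.

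The summed level of 12 T cell markers was 11.96 to 15.2 CPM in Ptgs+/+, 37.3 to 103 CPM in Ptgs-/- and 19.8 to 36.5 CPM in depleted tumors, where it lay above the Ptgs+/+ range. Of 11 tested, 10 were called higher in Ptgs-/- than in Ptgs+/+ tumors (median 2.44), where 3.14% of all genes were. In Ptgs-/- over depleted tumors 1 (Lck) was called higher (median 1.22), where 0.323% of all genes were. In depleted over Ptgs+/+ tumors 3 (Trac, Cd5 and Cd8a) were called higher (median 1.68), where 2.01% of all genes were. The filter sets part of these counts too. Cd8a, among others, passed it only with the Ptgs-/- libraries (1.23 to 1.86 CPM, at most 0.314 CPM in Ptgs+/+ and 1.28 CPM in depleted tumors). Over the same depleted libraries the summed level of the 10 granule genes lay below the Ptgs+/+ range. Trdc, of the gamma delta T cell receptor, was at 1.41 to 2.20, 0.982 to 5.20 and 0.397 to 1.29 CPM in Ptgs+/+, Ptgs-/- and depleted tumors and was not called.

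Set against the NK cell markers, the Ptgs+/+ and Ptgs-/- ranges of Gzma overlapped and those of Gzmm did not. The marker sum itself was 13.9 to 23.5 CPM in Ptgs+/+ and 58.8 to 126 CPM in Ptgs-/- tumors. A gene with unchanged CPM therefore falls on this scale, and how many of all genes would part in this way was not counted. There were 54.1, 20, 58.8 and 64.4 Gzma counts per 100 NK cell marker counts in Ptgs+/+ tumors and 55.1, 41.3 and 63.5 in Ptgs-/- tumors, and these ranges overlapped. Nkg7 had 9.63, 7.41, 11.8 and 16 in Ptgs+/+ and 15.4, 15.6 and 13.8 in Ptgs-/- tumors, which also overlapped. Gzmb had 5.93 to 17.8 and 3.91 to 9.60 in the 2 groups. Gzmm had 3.70, 5.19, 8.33 and 3.56 in Ptgs+/+ tumors and 1.46, 1.47 and 2.24 in Ptgs-/- tumors, without overlap. These rest on 7 to 31 Gzmm counts per library, and in CPM the groups overlapped. In depleted tumors Gzmm had 8.43 to 10.0 per 100, above both. Gzmc had 40.4, 14.8, 34.8 and 92.9 in Ptgs+/+ tumors and 15.9, 11.7 and 13.3 in Ptgs-/- tumors, so that only Ptgs+/+ replicate 2 fell among the Ptgs-/- values. The sum of Gzmd, Gzme, Gzmf and Gzmg was at 3.70 to 48.9 per 100 in Ptgs+/+ and 0.366 to 2.51 in Ptgs-/- tumors, without overlap. This scaling was chosen after the values were seen and was not tested.

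**Figure D4:**
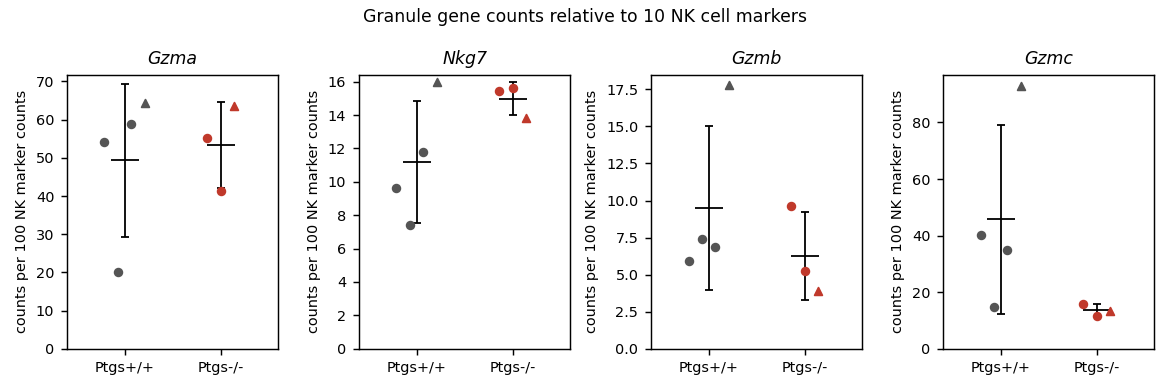
Counts of Gzma, Nkg7, Gzmb and Gzmc per 100 counts of the 10 NK cell markers (y axis) in Ptgs+/+ and Ptgs-/- libraries; triangles are the EB042 libraries and bars the mean ± SD. Gzma overlaps between the groups, while 3 of the 4 Ptgs+/+ libraries lie above all Ptgs-/- libraries for Gzmc.

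For Gzma, Nkg7, Gzmb and Prf1 the most similar genes over the 10 libraries were found by the smallest root-mean-square difference of mean-centred log2 CPM. For Gzma they were Klrc1 (0.86), Klra9 (1.15) and Ncr1 (1.18). For Nkg7 they were Il2rb (0.26), Samd3 (0.40) and Klrb1c (0.41). For Gzmb they were Serpinb6b (0.52), Txk (0.53) and Eomes (0.56), and for Prf1 Txk (0.60), 4833407H14Rik (0.60) and Serpinb6b (0.65). Among these 4 the differences were smallest for Nkg7 and largest for Gzma. They grow with how far a gene's level moves between libraries, so that they do not rank the 4 by likeness. Those of Prf1 rest on 0 to 17 counts per library.

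Partner genes of the granule were taken from lists of textbook roles. Of 10 genes for storage and activation, Ctsw, a cathepsin of cytotoxic cells, was the 1 called. It was called higher in Ptgs-/- than in Ptgs+/+ tumors, where 3.14% of all genes were, and than in depleted tumors, where 0.323% were. It was at 1.64, 0.619, 1.23 and 1.57 CPM in Ptgs+/+, 3.68, 6.41 and 13.5 CPM in Ptgs-/- and 0.749, 0.646 and 1.09 CPM in depleted tumors, and the Ptgs-/- libraries were above all others. Its log2 fold change was 2.56 ± 0.42 over Ptgs+/+ (adjusted p = 0.00160, edgeR's quasi-likelihood test) and 3.21 ± 0.50 over depleted tumors (adjusted p = 0.00668, same edgeR test). Without Ptgs-/- replicate 3 these were 1.97 and 2.61 and stayed called. Ctsc, the protease that activates progranzymes, was at 161 to 248 CPM in Ptgs+/+ tumors, 288 to 400 CPM in Ptgs-/- and 266 to 310 CPM in depleted tumors, with a log2 fold change of 0.61 ± 0.15 over Ptgs+/+ (adjusted p = 0.0152, same edgeR test) that was under the size needed for a call. The median of the list was 0.28 for Ptgs-/- over Ptgs+/+ and 0.13 for Ptgs-/- over depleted tumors.

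Of 12 exocytosis genes, 11 were tested, and Vamp7 was not analysed here. Unc13d, which primes granules for fusion, and Sytl2, a Rab27 effector, were called higher in Ptgs-/- than in Ptgs+/+ tumors, where 3.14% of all genes were. Neither was called in the other comparisons. Unc13d was at 2.72 to 3.92 CPM in Ptgs+/+, 6.75 to 12.5 CPM in Ptgs-/- and 5.81 to 7.95 CPM in depleted tumors, with a log2 fold change of 1.503 ± 0.24 over Ptgs+/+ (adjusted p = 0.00128, edgeR's quasi-likelihood test). Sytl2 was at 0.263 to 1.47, 2.37 to 5.07 and 1.75 to 2.19 CPM, with a log2 fold change of 1.65 ± 0.44 over Ptgs+/+ (adjusted p = 0.0192, same edgeR test). Both lie near the size needed for a call, and the call was lost without a single library in 5 of 10 fits for Unc13d and in 2 of 10 for Sytl2. For both genes the depleted libraries stayed above the Ptgs+/+ range, which was not so for Gzma, Gzmb, Gzmc or Prf1. The summed level of 8 macrophage markers was 1670 to 1964 CPM in Ptgs+/+, 2669 to 4249 CPM in Ptgs-/- and 2438 to 2760 CPM in depleted tumors, and that of 8 neutrophil markers was 198 to 268, 39.9 to 60.8 and 90.3 to 126 CPM. The macrophage markers, and the T cell markers given above, thus had the group order of Unc13d and Sytl2. The part of either cell type in these values was not tested. The median of the 11 genes was 0.59 for Ptgs-/- over Ptgs+/+, 0.33 for Ptgs-/- over depleted and 0.51 for depleted over Ptgs+/+ tumors.

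Of the 4 serpin inhibitors, which protect cells from granzymes, Serpinb9b was called higher in Ptgs-/- than in Ptgs+/+ tumors (log2 fold change 1.97 ± 0.45, adjusted p = 0.00943, edgeR's quasi-likelihood test), and by 2.61 without Ptgs+/+ replicate 4. Serpinb6b was called higher in Ptgs-/- than in depleted tumors (1.88 ± 0.23, adjusted p = 0.00200, same edgeR test) at 19.3, 24.9 and 28.0 CPM against 7.17, 6.27 and 5.76 CPM. Of all genes tested, 3.14% and 0.323% were called higher in these comparisons, in this order. Serpinb9, the inhibitor of granzyme B, had a log2 fold change of 0.58 ± 0.17 in Ptgs-/- over Ptgs+/+ tumors (adjusted p = 0.0298, same edgeR test), under the size needed for a call. Of the death receptor ligands, Fasl had 3, 1, 1 and 2 counts in Ptgs+/+ tumors, 7, 3 and 21 in Ptgs-/- and 2, 1 and 2 in depleted tumors and was below the filter.

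Of 16 granzyme substrates and death machinery genes, which target cells also express, 15 were tested and 0 were called in each comparison by edgeR, with medians of 0.09, 0.02 and -0.01 in the order above. DESeq2 also called 0 of them, and an unadjusted p under 0.05 was reached by 5, 2 and 3 genes. At an adjusted p of 0.05 without the size rule, 3 were lower in Ptgs-/- than in Ptgs+/+ tumors and 1 was higher in depleted than in Ptgs+/+ tumors.

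Of the neighbours of the granzymes on chromosome 14, Mcpt4 and Cma1 passed the filter on low counts. Beyond Gzme the cluster runs on to Ctsg and the mast cell proteases Mcpt8, Mcpt4, Mcpt2, Mcpt9, Mcpt1 and Cma1. Cma1, the mast cell chymase, was at 52.7, 43.6, 38.4 and 45.1 CPM in Ptgs+/+, 16.2, 99.1 and 47.0 CPM in Ptgs-/- and 68.4, 96.3 and 103 CPM in depleted tumors. Its depleted libraries were above the Ptgs+/+ range and overlapped the Ptgs-/- range, and neither it nor Mcpt4 was called in any comparison by edgeR or DESeq2, with an unadjusted p under 0.05 for 1 of them in depleted against Ptgs+/+ tumors. The remaining 7 neighbours, Gzmg and Gzmn among them, were below the filter. Gzmg had 9, 0, 4 and 22 counts in Ptgs+/+ tumors, 2, 0 and 5 in Ptgs-/- tumors and 0 in each depleted tumor, so that it was highest in Ptgs+/+ replicate 4, as Gzmd and Gzme were. Of the genes beside Gzmm on chromosome 10, Bsg, Prtn3 and Cfd were tested, and edgeR and DESeq2 called 0 of them, with an unadjusted p under 0.05 for 0. The shares of all genes called were low, so that 0 calls do not set these short lists apart.

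**Figure D5:**
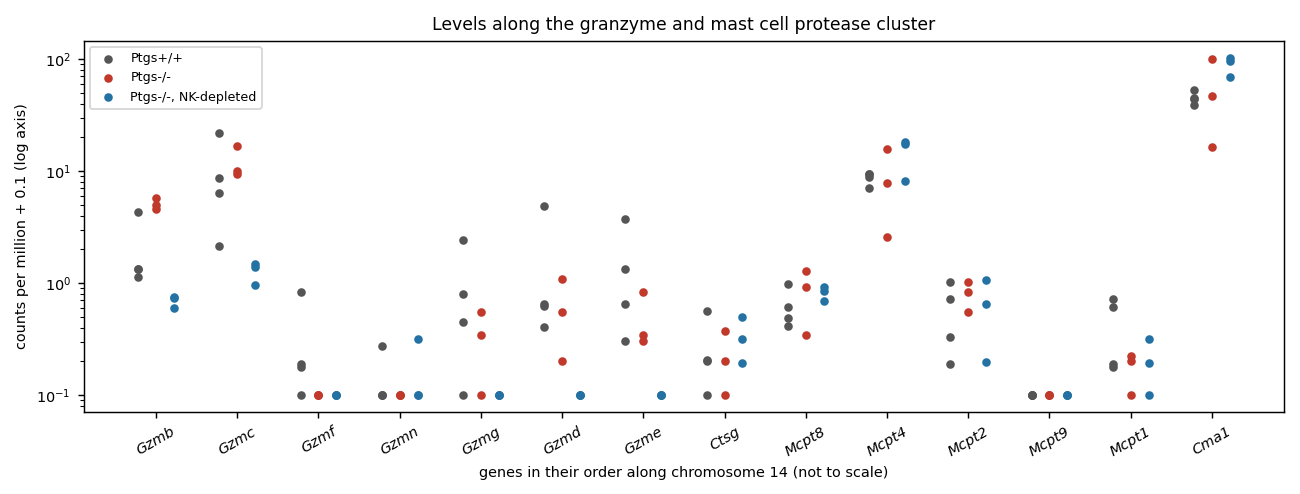
Level in each library (y axis, CPM plus 0.1, log axis) of the genes of the chromosome 14 cluster in their order, which is not drawn to scale; points at 0.1 are 0 counts. The depleted libraries (blue) lie lowest for Gzmb and Gzmc and at 0 counts for Gzmf, Gzmg, Gzmd and Gzme, but not for Mcpt4 and Cma1.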

How the data were processed

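Total RNA of bulk tumors was made into QuantSeq 3′ libraries. According to the study's methods, the authors trimmed reads (BBDUK, fqtrim, cutadapt), aligned them to GRCm38 with STAR and assigned them to an Ensembl annotation with featureCounts. The deposited matrix holds the raw counts of each library, not normalized or pooled by the authors; handling of strand, multi-mapping reads and molecular identifiers is not given in the sources used here. Samples were grouped by the submitters' labels. Of 45706 genes, 45143 matched a table of mouse gene symbols.

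The 10 libraries were fitted together in edgeR 4.0.16 (R 4.3.3; TMM factors, filterByExpr, quasi-likelihood test, Benjamini-Hochberg over 14550 genes). A gene was called at an adjusted p of at most 0.05 and a log2 fold change of 1.5 or more in either direction. Standard errors were taken from the F statistic. Ratios of counts were tested by two-sided exact permutation (scipy 1.17.1), adjusted over 6 tests. Shares have Wilson 95% intervals, which cover counting error only. The scripts were tested on simulated data. Alternatives were DESeq2 1.42.0, other scaling and filters, a likelihood ratio test, only the groups compared, experiment code, replicate block, and leaving out each library. The genes named are the 10 members, list genes called, list genes that define a role, and the 3 tested genes most like Gzma, Gzmb, Prf1 and Nkg7 (prior count 2). Members and lists were chosen with earlier results of these data known. Within-group chi-square per degree of freedom of 7.41 to 30.1 showed no library deposited again.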

Additional observations from a re-analysis of the deposited data

Results flagged for a closer look

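In a check for a library standing apart from the others of its group, done in the 4 Ptgs+/+ tumors with Dixon's gap test, 6 of 17 values were marked. Chance marks about 1 in 20 independent values, but these were not independent. Most marks fell on replicate 4, and the counts of Gzmd and Gzmf cannot be told apart with certainty. The 6 can thus not be set against that rate. Replicate 4 (EB042) stood above the others for Gzmb at 4.18 CPM (next 1.25), for Gzmd at 4.81 CPM (next 0.545), for Gzmf at 0.732 CPM (next 0.0878) and for the inhibitor gene Serpinb9b at 4.39 CPM (next 1.44). Replicate 3 stood above the others for Gzmm at 1.49 CPM (next 0.837). Replicate 1 had the lowest log2 ratio of Prf1 to Nkg7 at -3.41 (next -2.16), which rested on 2 Prf1 counts.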

How the results depend on the processing

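Gzma and Nkg7 were called higher in Ptgs-/- tumors than in both other groups under every alternative run. Among the alternatives other than leaving out 1 library, the number of members called stayed within 1.5 times its value except in depleted against Ptgs+/+ tumors with no filter, where 6 were called in place of 2. Leaving out 1 library at a time gave 2 to 3 members for Ptgs-/- over Ptgs+/+, 2 to 4 for Ptgs-/- over depleted and 1 to 4 for depleted against Ptgs+/+ tumors; the lowest counts of the latter comparisons came without a depleted library, and the 4 of the last without Ptgs-/- replicate 2, when Gzme and Prf1 passed the filter. The Gzmc difference between Ptgs-/- and Ptgs+/+ tumors ran from -0.053 (without Ptgs+/+ replicate 2) to 1.02 (without Ptgs+/+ replicate 4) and was -0.0032 without Ptgs-/- replicate 3. The log2 ratio of Prf1 to Nkg7 in Ptgs-/- against depleted tumors turned from 0.86 to -0.0011 with 1 added to each count and to -1.11 with 3, because depleted libraries had 0 Prf1 counts. Gzmb was called lower in depleted than in Ptgs+/+ tumors by DESeq2 (-1.70), the likelihood ratio test (-1.68) and no filter (-1.65). With a replicate block the members called were 2, 3 and 2, and Gzmc was no longer called in Ptgs-/- over depleted tumors (3.32, adjusted p = 0.0806 by edgeR). The numbers do not pair the samples: correlations of same-numbered libraries ran from -0.24 to 0.36 and 4 of 11 passed 0.1. Low counts limit Gzmd, Gzme, Gzmf, Gzmk and Prf1.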
